A study of Mus musculus with 59 samples.

Results

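The clones described are 11 lines of induced pluripotent stem cells (iPSC) made from granulocyte-macrophage progenitors (GMPs), set against 20 iPSC lines made from other blood cells, 11 from haematopoietic stem cells (HSCs) and 9 from granulocytes. They were chosen by the origin label alone and make up 31 of the 59 lines in the series, each measured on 1 Affymetrix array. All 31 carry an inducible reprogramming cassette with myc, Klf4, Oct4 and Sox2, which came from the embryonic stem cells (ESC) used to make the chimeric animals. The blood cells were taken from animals labelled mouse 1, mouse 2 and chimera 2, and each animal gave clones of each origin. GMP-derived clones numbered 4 from mouse 1, 4 from mouse 2 and 3 from chimera 2. HSC-derived clones numbered 4, 4 and 3 from the same animals, and granulocyte-derived clones 3 from each. The cells grew in ESC medium with serum and LIF on irradiated mouse embryonic fibroblasts (MEFs), with a preplating step to remove the MEFs before RNA extraction, so each array reads an established pluripotent line and not the blood cell it came from. The labels give a separate clone for each array, and p-values measure the spread between clones. A shift in a few cells of a culture and a shift in every cell cannot be told apart in such bulk RNA.

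GMPs are bone marrow progenitors that descend from HSCs and give rise to granulocytes and macrophages. They are known for the enzymes of the granules that they begin to store, such as myeloperoxidase and neutrophil elastase, and for the transcription factors PU.1 (Spi1) and C/EBP alpha. HSCs carry another set of regulators, among them Tal1, Gata2 and Meis1, while mature granulocytes store late granule proteins such as lactoferrin (Ltf). Reprogramming silences these programmes and turns on the pluripotency network. The comparison asks whether iPSC of GMP origin can be told from iPSC of the other blood origins by their RNA.

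The pluripotency genes were high in the GMP-derived clones, as their label requires. Pou5f1, which encodes Oct4, lay between 4.505 and 5.04 in the 11 GMP-derived clones with a median of 4.601, against 4.51 to 5.01 with a median of 4.575 in the 20 HSC- and granulocyte-derived clones. These values are on the deposited log2 scale, on which every array has a mean near 0. Genes of mature blood cells and granules read low on a scale whose lowest value was -4.83. Ptprc, which encodes the pan-leukocyte protein CD45, lay between -4.04 and -3.76 in GMP-derived clones and between -4.01 and -3.79 in the others. Some regulators that blood progenitors use read higher in these lines: Kit, a receptor gene, lay between 1.09 and 1.845 in GMP-derived clones and between 0.90 and 1.95 in the others, and Gata2 between -0.83 and -0.41, against -0.92 and -0.20. The SD of an array's values was 2.57 to 2.625 in GMP-derived clones and 2.58 to 2.64 in the other clones.

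No gene passed the test between GMP-derived and other blood-derived iPSC. Of 11807 genes tested with the animal as a block, 0 (0%) passed an adjusted p of 0.05 for GMP minus the mean of HSC and granulocyte origin (limma, Benjamini-Hochberg), and the smallest adjusted p was 0.238. At an unadjusted p under 0.05 there were 549 genes, 4.65% of all, with 301 higher in GMP-derived clones (2.55%) and 248 lower (2.1%). The absolute difference had a median of 0.033 log2 units and exceeded 0.11 in 5% of genes.

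The intervals around these differences were narrow, and they carry the spread between the 31 clones. With 3 animals, they do not give how far the difference would vary in further animals. In a fit to 1 mean per animal and origin the smallest adjusted p was 0.999 (limma). The 95% confidence interval of a gene's difference reached a median of 0.098 log2 units to either side. It lay wholly within 0.25 log2 units of 0, or 1.19-fold, for 11183 genes (94.7%), and within 0.5 units, or 1.41-fold, for 11798 genes (99.9%). Differences beyond 0.25 units were estimated for 5 genes, which are named after their values were seen. They were Rbbp4, a histone-binding subunit of several chromatin complexes (0.40), the keratin gene Krt16 (0.29), the glutamate receptor gene Grin2b (0.26), the membrane traffic gene Mal2 (-0.26) and the lymphoid transcription factor gene Bach2 (-0.265). None of the 5 passed the adjusted threshold. Rbbp4 varied widely: the GMP-derived clones ranged from 1.905 to 3.83 with a median of 3.25, and the other clones from 1.785 to 3.83 with a median of 2.98. Its difference was 0.72 in mouse 1, 0.47 in mouse 2 and -0.11 in chimera 2, and 0.22 without mouse 1.

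**Figure D1:**
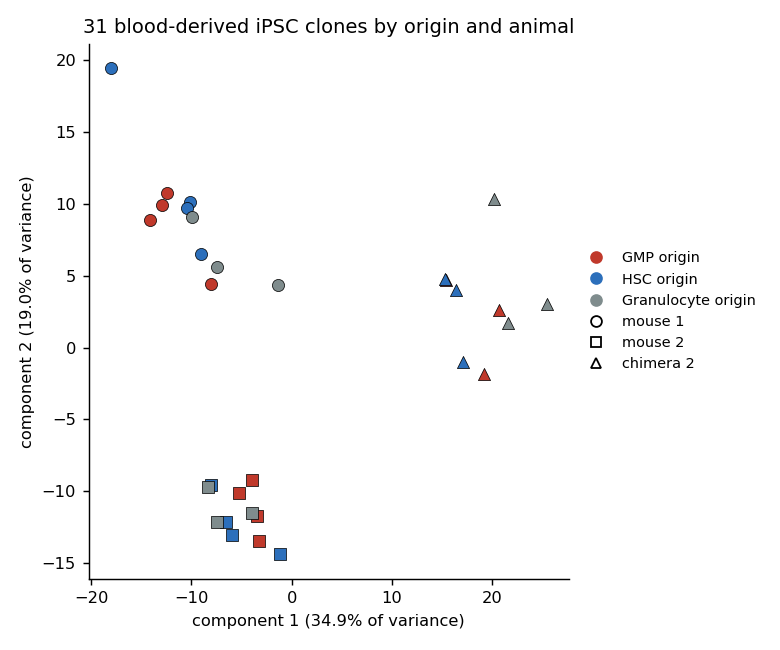
Scores of the 31 blood-derived clones on the first and second principal components of the 11807 genes (x axis, 34.9% of the variance; y axis, 19% of the variance), coloured by cell of origin, with the shape of a point giving the animal. The clones group by animal, and the GMP-derived clones lie among the other clones of their animal.

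The clones grouped by animal and not by cell of origin. On the first component the chimera 2 clones scored 15.3 to 25.5, apart from mouse 1 (-18.1 to -1.3) and mouse 2 (-8.3 to -1.2). On the second component mouse 1 scored 4.3 to 19.4 and mouse 2 -14.4 to -9.2. The GMP-derived clones spanned -14.2 to 20.7 on the first component, overlapping HSC-derived clones (-18.1 to 17.1) and granulocyte-derived clones (-9.9 to 25.5). In the median gene the animal accounted for 27% of the variation, the 3 blood origins for 3.37%, and GMP against the other clones for 1.03%. The share of the animal was larger than that of the 3 origins in 10026 genes (84.9%). By whole-array correlation within the own animal, 8 of the 11 GMP-derived clones were closer on average to other GMP-derived clones than to the rest. These 8 were the clones of mouse 1 and mouse 2. In chimera 2 the mean correlations with GMP-derived clones and with the rest were 0.9968 and 0.9972 (iPSC-38), 0.9953 for both (iPSC-39) and 0.9961 and 0.9969 (iPSC-40). Of the 20 other clones, 8 were also closer to the GMP-derived ones. They were iPSC-7, iPSC-8, iPSC-10, iPSC-15 and iPSC-16 of mouse 1, iPSC-22 and iPSC-31 of mouse 2 and iPSC-37 of chimera 2.

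The 15 genes with the smallest p-values held small differences at low levels. Of these, 11 read higher and 4 lower in GMP-derived clones, by 0.11 to 0.29 log2 units in size, with adjusted p-values of 0.238 to 0.981. The 15 were chosen by this contrast, so that their direction, which was the same in all 3 animals and against both other origins, is a description. Over all genes 21% had 1 direction in all 3 animals. The mean level was under -2 in 9 of the 15, compared with 25.6% of all genes, and 10 were read by 1 probe set.

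Krt16, a keratin of stressed epithelia, had the smallest p. It read -1.95, -1.75, -1.98 and -2.29 in GMP-derived clones of mouse 1, -1.98, -1.67, -2.004 and -1.79 in those of mouse 2 and -1.85, -1.78 and -1.99 in those of chimera 2. The 20 other clones ranged from -2.55 to -1.94 with a median of -2.18. All 11 GMP-derived clones lay above the mean of the other clones of their animal, 5 lay above every other clone, and the groups overlapped. The difference was 0.29 (SE 0.06, adjusted p = 0.238), and the ESC mean of -1.94 was close to that of the GMP-derived clones at -1.91. Without the granulocyte-derived clone iPSC-15, Krt16 passed alone, at 0.31 and an adjusted p of 0.0449.

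Galns, a lysosomal sulfatase gene, came next. GMP-derived clones ranged from -1.25 to -1.004 with a median of -1.22, and the other clones from -1.67 to -1.19 with a median of -1.36. In mouse 2 and chimera 2 each GMP-derived clone read above each other clone of that animal, while in mouse 1 the groups overlapped. Galns was picked by its p for this contrast, and the share of all genes that separate within an animal was not counted. The difference was 0.19 (SE 0.04, adjusted p = 0.238). Gdf9, which encodes a growth factor secreted by oocytes, ranged from -2.62 to -2.115 in GMP-derived clones and from -2.78 to -2.40 in the others. Its difference was 0.24 (SE 0.05, adjusted p = 0.245), with 6 GMP-derived clones above every other clone and the rest among them.

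Further genes of this group that read higher have unrelated known roles. Ccr8 encodes a chemokine receptor (0.15), Cyp2d26 a cytochrome P450 (0.18), Arg2 the mitochondrial arginase (0.15) and Cc2d1a a scaffold protein (0.165). Lin7b encodes a polarity scaffold (0.20), Mical1 an enzyme that oxidises actin (0.12) and Opn4 the photopigment melanopsin (0.19). Their adjusted p-values were 0.412 for Ccr8, 0.883 for Cyp2d26 and 0.981 for the rest.

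**Figure D2:**
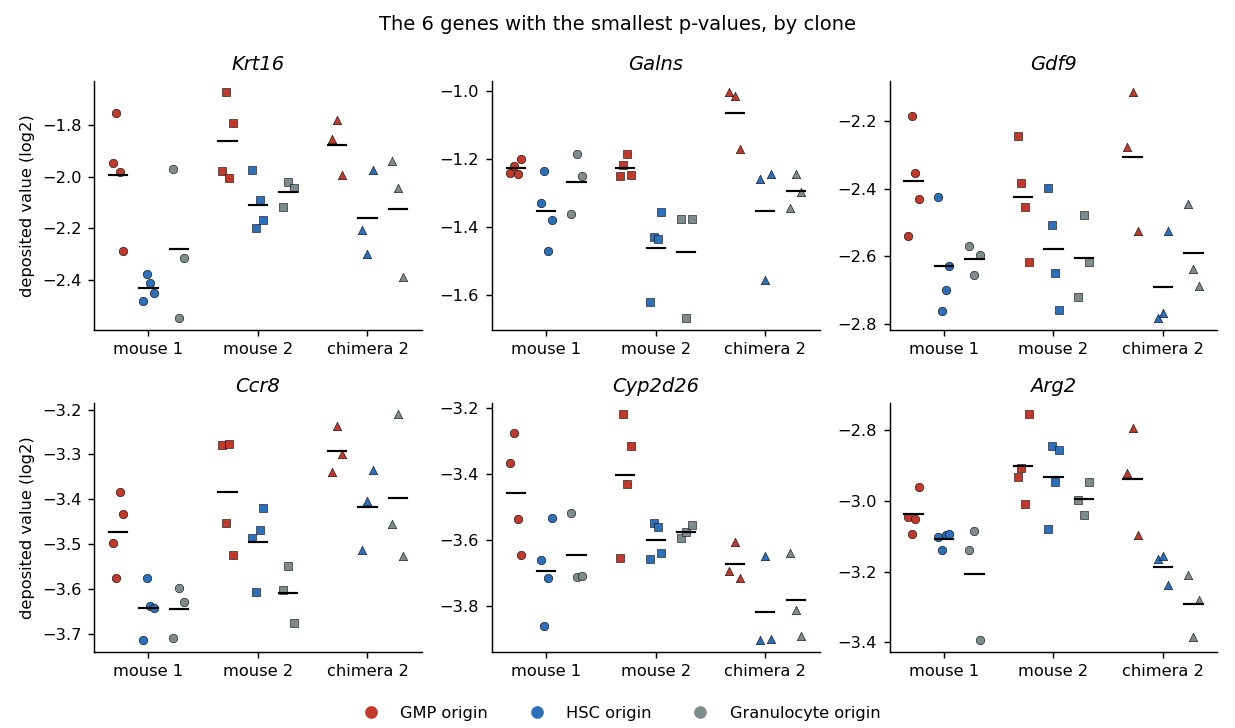
Deposited log2 values (y axes) of the 6 genes with the smallest p-values in each of the 31 clones, by animal, with GMP origin left of HSC and granulocyte origin within each animal. Points are clones and bars are means; the GMP-derived clones read higher on average in every animal, by 0.15 to 0.29 log2 units over the 3 animals, and overlap the other clones.

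The 4 genes that read lower were Tc2n, Chst15, Igf2bp3 and Lypd8. Tc2n, a gene for a protein with tandem C2 domains, ranged from -3.04 to -2.72 in GMP-derived clones and from -2.93 to -2.41 in the others, a difference of -0.17 (SE 0.045, adjusted p = 0.981). The difference was -0.26 against granulocyte origin and -0.08 against HSC origin. Igf2bp3, which encodes an RNA-binding protein of fetal tissues, ranged from 2.90 to 3.17 in GMP-derived clones and from 2.97 to 3.41 in the others, a difference of -0.11 (SE 0.03, adjusted p = 0.981). All 11 GMP-derived clones read below the mean of the other clones of their animal for Tc2n, Igf2bp3 and Lypd8. Chst15, a chondroitin sulfotransferase gene, differed by -0.22 and Lypd8, a gene for an intestinal surface protein, by -0.18.

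Of these 15 genes, 5 had further probe sets. The second probe set gave -0.227 for Chst15, against -0.224 for the one used, and 0.100 for Mical1, against 0.119. The further probe sets of Tc2n read 0.005 and -0.065, those of Igf2bp3 -0.032, -0.010 and -0.075, and those of Lin7b 0.039, 0.068 and 0.113. For Tc2n, Igf2bp3 and Lin7b the difference was smaller in each further probe set than in the one used.

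Genes of the blood programmes differed little between GMP-derived and other clones. Of 62 measured genes on 4 blood lists, 0 passed the adjusted threshold (0% of all genes did), and 3 (4.84%) had an unadjusted p under 0.05, against 4.65% of all genes. The largest absolute difference was 0.17 log2 units, and the 95% interval lay within 0.25 units for 54 of the 62 and within 0.5 units for all 62.

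The GMP and granule list had 15 measured members and a median difference of 0.009, against 0.005 for all genes. Ctsg, which encodes the granule protease cathepsin G, ranged from -3.27 to -2.90 in GMP-derived clones with a median of -3.04, and from -3.36 to -2.83 in the others with a median of -3.14. The groups overlapped almost fully, and the difference was 0.12 (SE 0.05, adjusted p = 0.981). Spi1 differed by 0.12 (SE 0.06), and both had an unadjusted p under 0.05 (0.0176 for Ctsg and 0.0457 for Spi1). The markers best known for GMPs did not stand out: Mpo, for myeloperoxidase, differed by 0.08 with an interval of -0.03 to 0.185, and Elane, for neutrophil elastase, by -0.015 with an interval of -0.16 to 0.13. Averaged over the list, the level was -2.435 to -2.23 in GMP-derived clones, -2.43 to -2.26 in HSC-derived clones, -2.47 to -2.19 in granulocyte-derived clones and -2.35 to -2.225 in the 4 ESC.

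Myb, a transcription factor gene of blood progenitors, held the widest difference of that list. In chimera 2 it read 0.595, 0.195 and 0.46 in GMP-derived clones, against 0.92, 0.94 and 0.62 in HSC-derived and 0.69, 1.04 and 0.93 in granulocyte-derived clones. Each GMP-derived clone of chimera 2 lay below each other clone of that animal, while in mouse 1 and mouse 2 the groups overlapped. With so few clones many genes can separate in 1 animal, and their share of all genes was not counted. The difference was -0.44 in chimera 2, -0.01 in mouse 1 and -0.11 in mouse 2, and -0.17 over the 3 animals (SE 0.09, adjusted p = 0.981).

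Among 16 HSC and early progenitor genes the median difference was 0.017, with 9 above 0 and the highest, for Hlf, at 0.109. Lmo2, a gene for a bridging protein of blood transcription complexes, ranged from -1.57 to -1.01 in GMP-derived clones and from -1.65 to -0.497 in the others. Its difference of -0.17 (SE 0.06, unadjusted p = 0.00832, adjusted p = 0.981) was -0.17 in mouse 1, 0.02 in mouse 2 and -0.39 in chimera 2. Cd34, which encodes a surface protein of blood progenitors, differed by -0.49 in mouse 1, 0.18 in mouse 2 and -0.10 in chimera 2. In mouse 1 its GMP-derived clones read -3.265, -2.95, -2.82 and -2.90, all below the HSC-derived clones (-2.47 to -2.21) and narrowly below the granulocyte-derived clones (-2.81 to -2.40). Cd34 was named after its values were seen, and no gene passed in mouse 1 (smallest limma adjusted p 0.525). How many of all genes separate in this way in 1 animal was not counted. Kit, Meis1 and Tal1 had differences near 0, with 0.04 for Kit (interval -0.10 to 0.18).

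The 13 granulocyte genes had a median difference of -0.001, and none reached an unadjusted p of 0.05 (lowest 0.0815, for the integrin gene Itgb2). S100a8, a calcium-binding protein gene of neutrophils, differed by -0.01 (interval -0.09 to 0.08), Ltf by -0.05 and the cathelicidin gene Camp by 0.001. The 18 pan-blood and macrophage genes had a median of 0.010, with a lowest unadjusted p of 0.226 for the protease gene Ctss.

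**Figure D3:**
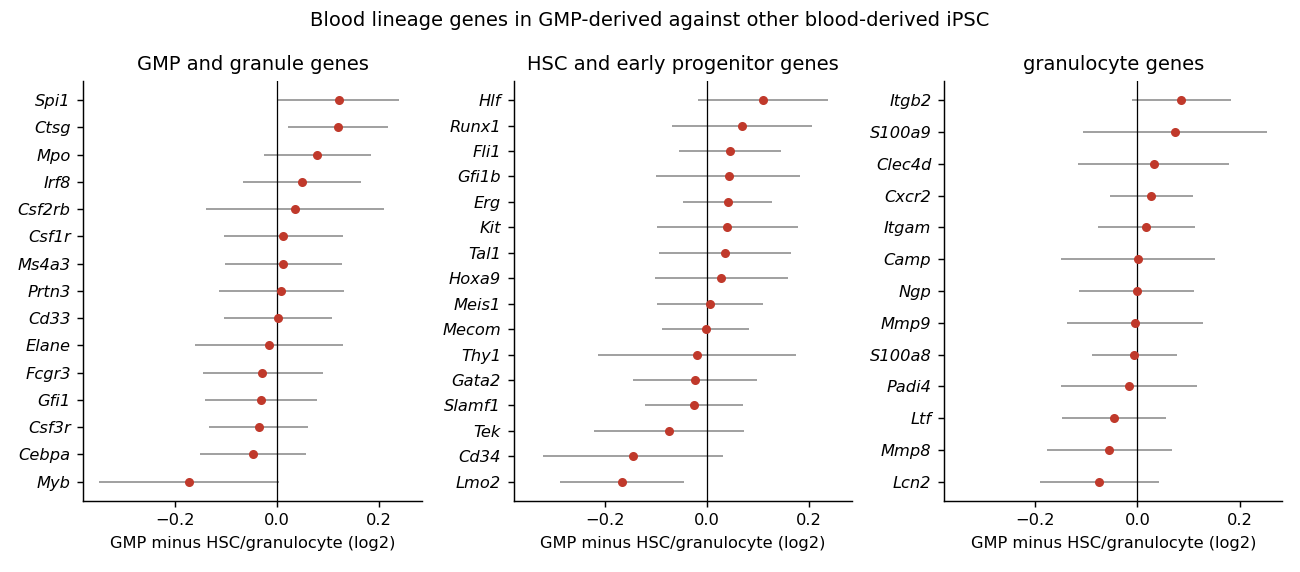
Difference of GMP-derived from other blood-derived iPSC for the measured genes of 3 blood lists (x axes, log2 units; points are estimates over 31 clones and lines 95% intervals; 1 gene a row). Nearly every interval crosses 0, and the estimates run between -0.173 for Myb and 0.121 for Spi1.

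The reprogramming factors and the pluripotency network differed little between the origins. The difference was 0.025 for Pou5f1 (interval -0.02 to 0.07), 0.01 for Sox2 (-0.08 to 0.10), -0.003 for Klf4 (-0.105 to 0.10) and -0.01 for Nanog (-0.10 to 0.085). Myc differed by 0.02 with a wider interval of -0.17 to 0.21. Its level depended on the animal, so that the GMP-derived clones spanned 1.32 to 2.735 and the others 0.97 to 2.99. The 21 measured genes of the naive pluripotency network had a median difference of 0.025 and 0 members with an unadjusted p under 0.05.

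Imprinted genes gave wide intervals. Meg3 and Rian are noncoding transcripts made from the maternal copy of the Dlk1-Dio3 region. Meg3 ranged from 0.11 to 1.73 in GMP-derived clones with a median of 0.86, and from -0.45 to 1.755 in the others with a median of 0.4955. Its difference was 0.18 with an interval of -0.24 to 0.59, and its further probe sets gave 0.11, -0.01 and 0.01. Rian differed by -0.04 with an interval of -0.56 to 0.48. Every clone of the 3 blood origins, and not only of GMP origin, read below the lowest ESC for both, which was 2.74 for Meg3 and 3.45 for Rian. Without the GMP-derived clone iPSC-27, which stood apart in mouse 2, the difference was 0.065 for Meg3 and -0.17 for Rian.
The 23 other imprinted genes had a median difference of -0.001, and 2 had an unadjusted p under 0.05, against 4.65% of all genes. Both read lower in GMP-derived clones. Peg3, a paternally expressed zinc finger gene, ranged from 0.545 to 1.78 in GMP-derived clones and from 0.62 to 2.16 in the others, a difference of -0.21 (SE 0.08, adjusted p = 0.981). Usp29 differed by -0.16 (SE 0.07, adjusted p = 0.981). Both read lower on average in each of the 3 animals, and the groups overlapped for both.

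**Figure D4:**
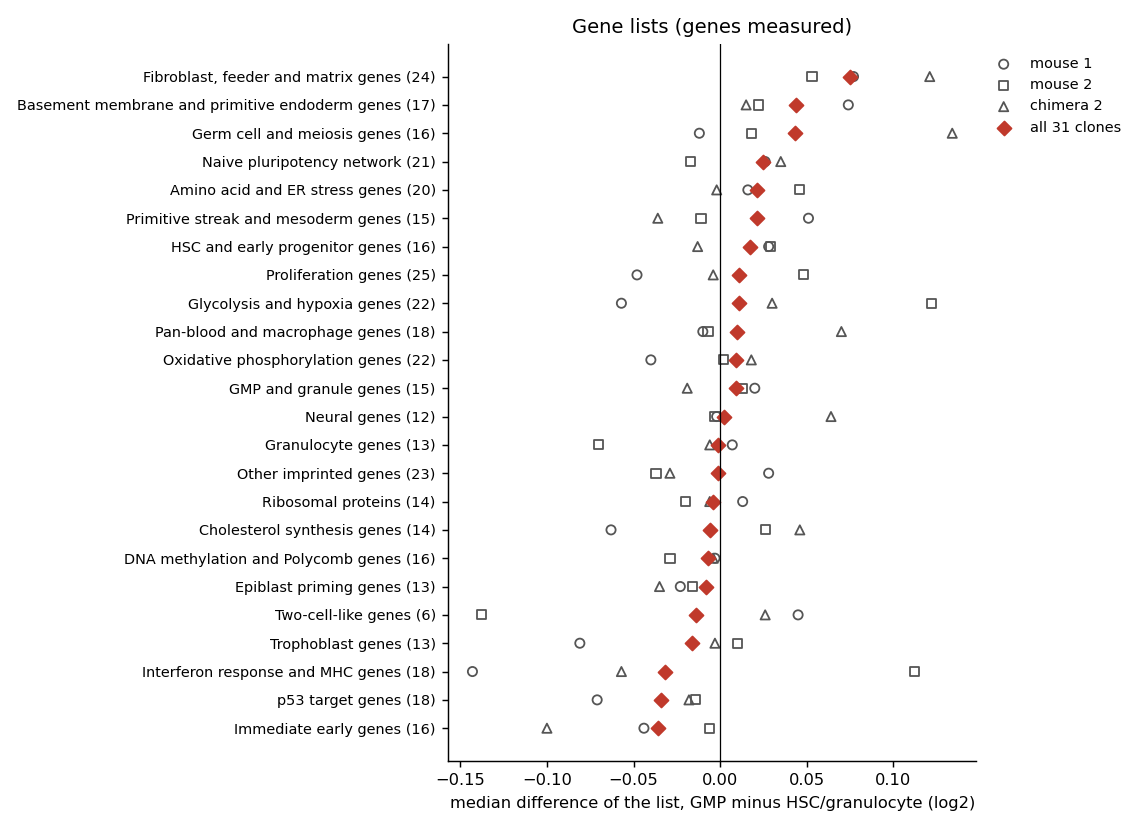
Median difference of the genes of each list between GMP-derived and other blood-derived iPSC (x axis, log2 units), for all 31 clones (filled diamonds) and within each animal (open symbols). Lists with at least 6 measured genes are shown, 1 a row, with the number of genes measured in brackets; the filled diamonds lie between -0.036 and 0.075, and the animals scatter to both sides of 0 in most lists.

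Across the 27 lists, which hold 410 measured genes in all, 0 passed the adjusted threshold and 18 (4.39%) had an unadjusted p under 0.05, against 4.65% of all genes. Among these, 10 read higher and 8 lower. The fibroblast, feeder and matrix list had the highest median, 0.075, with 21 of 24 genes above 0, compared with 54.5% of all genes. Its mean level was 1.23 to 2.21 in GMP-derived clones, 1.10 to 2.66 in HSC-derived clones and 1.07 to 2.00 in granulocyte-derived clones. The median difference was 0.166 against granulocyte origin and 0.013 against HSC origin. Vim, the intermediate filament gene vimentin, was its member with the lowest unadjusted p (0.065, unadjusted p = 0.0445). The part of fibroblast RNA in the other differences was not tested.

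The glycolysis and the interferon lists had medians of different sign in different animals, a difference that was not tested for lists. The 22 glycolysis and hypoxia genes had a median difference of 0.011, with -0.057 in mouse 1, 0.122 in mouse 2 and 0.030 in chimera 2. Car9, a carbonic anhydrase gene induced by low oxygen, differed by 0.22 (SE 0.08, unadjusted p = 0.00783) and Vegfa, the vascular growth factor gene, by 0.11 (SE 0.05, unadjusted p = 0.037), and both read higher in each of the 3 animals. The 18 interferon response and MHC genes had medians of -0.143 in mouse 1, 0.112 in mouse 2 and -0.057 in chimera 2. Of 18 p53 target genes, 4 lay above 0, and the median was -0.034. The death receptor gene Fas (0.13) and Phlda3 (-0.10) had an unadjusted p under 0.05, in opposite directions.

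Members of the remaining lists differed by small amounts. Of the 20 amino acid and ER stress genes, Chac1, which encodes a glutathione-degrading enzyme, differed by 0.20 (SE 0.065, unadjusted p = 0.004), the smallest p of any list member, and Herpud1, an ER protein gene, by 0.10 (SE 0.035). Stra8, a gene of meiotic entry, differed by 0.20 and the testis gene Tex101 by -0.125 among 16 germ cell genes with a list median of 0.043. The nodal inhibitor gene Lefty1 differed by -0.16 among 13 epiblast genes, the neuronal tubulin gene Tubb3 by 0.16 among 12 neural genes, and the early growth response gene Egr2 by -0.205 (SE 0.08) among 16 immediate early genes. Among 22 oxidative phosphorylation genes Atp5o differed by -0.05, and the 14 ribosomal protein genes lay within -0.02 and 0.01, with a median of -0.004. Basement membrane genes had a median of 0.044, streak genes 0.021, trophoblast genes -0.016, 2-cell-like genes -0.014, cholesterol genes -0.006, proliferation genes 0.011, DNA methylation and Polycomb genes -0.007 and the 4 sex-linked genes -0.098, with 0 members of these lists at an unadjusted p under 0.05. The sex-linked median was the farthest from 0 of the 27 lists, and its members include Eif2s3y and Uty, which varied widely between clones.

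Setting the GMP-derived clones against each other origin alone changed little. Both comparisons use the same GMP-derived clones and are not independent. Against HSC origin 0 of 11807 genes (0%) passed, where the smallest adjusted p was 0.287 and 673 genes (5.7%) had an unadjusted p under 0.05. Against granulocyte origin 0 genes (0%) passed, where the smallest adjusted p was 0.359 and 612 genes (5.18%) had an unadjusted p under 0.05. Without the granulocyte-derived clone iPSC-17, 1 gene passed against granulocyte origin, which was Tc2n.

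Between the other origins, granulocyte minus HSC, 5 genes passed (0.0423%), and 852 (7.22%) had an unadjusted p under 0.05. Atf3, a stress-induced transcription factor gene, was higher by 0.455 (adjusted p = 0.0301), the chaperone gene Clu by 0.33 (adjusted p = 0.0458) and Sfn, the cell cycle gene of 14-3-3 sigma, by 0.25 (adjusted p = 0.0237). Mcf2, a guanine nucleotide exchange factor gene, differed by -0.485 and the pigment cell gene Pmel by -0.25 (adjusted p = 0.0237 for each). In all 5 the mean of the GMP-derived clones lay between the means of the other origins, and none passed for GMP against the mean of the others. For Mcf2 the GMP-derived clones ranged from -0.515 to 0.44 with a median of -0.17. Granulocyte-derived clones ranged from -0.81 to -0.215 with a median of -0.40, and HSC-derived clones from -0.18 to 0.485 with a median of 0.02. The granulocyte- and HSC-derived clones of Mcf2 did not overlap, and the GMP-derived ones covered most of both ranges.

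The differences of these 5 genes moved little when 1 clone was left out, with Atf3 at 0.43 to 0.50, Mcf2 at -0.52 to -0.45 and Sfn at 0.22 to 0.285, but the calls changed. No gene passed without any 1 of iPSC-16, iPSC-17, iPSC-36, iPSC-37, iPSC-42 or iPSC-43, or without mouse 1 or chimera 2. Without iPSC-15 only Sfn passed, and without iPSC-31 only Mcf2 and Pmel did. The count was 3 without iPSC-10, iPSC-21, iPSC-22, iPSC-24 or iPSC-35, 22 without iPSC-29 and 21 without mouse 2.

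Within single animals 1 gene passed. In mouse 2 Adm, which encodes the vasodilator peptide adrenomedullin, passed as the only gene of 11807 (0.00847%). It read -0.58, -0.61, -0.68 and -1.003 in GMP-derived clones, against -0.97, -1.29, -0.99 and -1.23 in HSC-derived clones and -1.67, -1.59 and -1.69 in granulocyte-derived clones of mouse 2. The GMP-derived clone at -1.003 (iPSC-28) overlapped HSC-derived clones, and the granulocyte-derived clones read lowest. The difference was 0.67 in mouse 2 (SE 0.10, limma adjusted p = 0.00683), -0.19 in mouse 1 (SE 0.10) and 0.04 in chimera 2 (SE 0.115). Without iPSC-25, iPSC-26 or iPSC-27 Adm no longer passed in mouse 2, and without iPSC-31 Atf3 passed beside it.

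In mouse 1 and chimera 2, 0 genes passed (0% in each), with 897 (7.6%) and 617 (5.23%) at an unadjusted p under 0.05, compared with 1035 (8.77%) in mouse 2. In chimera 2 the imprinted growth inhibitor gene Grb10 passed without iPSC-40, and Lmo2 passed without iPSC-41.

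Whether the GMP difference itself varied between the animals was tested directly. No gene passed (0%), with a smallest adjusted p of 0.0993 for Adm, and 1062 genes (8.99%) had an unadjusted p under 0.05. The 8 genes with the smallest p-values were Adm, the neuronal transcription factor gene Phox2a, the phosphatase gene Acp5, the surface mucin gene Pdpn, Bnipl, Atf3, the hypoxia- and clock-regulated gene Bhlhe40 and the keratin gene Krt19. All 8 had a difference below 0 in mouse 1 (-0.48 to -0.18, with -0.482 for Krt19 and -0.177 for Pdpn) and above 0 in mouse 2 (0.14 for Bnipl to 0.67 for Adm). The 8 were chosen by this test, so that their opposite directions are a description. Genes at an unadjusted limma p under 0.05 also leaned by animal. In mouse 1, 343 were higher and 554 lower (7.6% of all genes together). In mouse 2, 761 were higher and 274 lower (8.77%), and in chimera 2, 353 and 264 (5.23%). The median difference over all genes was -0.005 in mouse 1, 0.0135 in mouse 2 and 0.003 in chimera 2. Genes are not independent within a clone, so these counts are a description and do not bear on the 8 genes. Bhlhe40 read 2.50, 2.76, 2.78 and 2.58 in GMP-derived clones of mouse 2, against 2.42, 2.46, 2.47 and 2.095 in HSC-derived and 1.99, 2.15 and 2.07 in granulocyte-derived clones. In mouse 2 each GMP-derived clone read above each other clone for Bhlhe40, while in mouse 1 the groups overlapped and the difference was -0.36. The share of all genes with such a separation in mouse 2 was not counted. Adm passed this test after genes of low mean level were left out, with a variance trend, and without iPSC-10, iPSC-15, iPSC-28 or iPSC-40. Reep5, an ER protein gene, passed beside it without iPSC-10 and Grb10 without iPSC-40, and Phox2a passed alone without iPSC-7.

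GMP-derived clones of 1 animal differed widely from each other in a few genes. The SD between GMP-derived clones of the same animal had a median of 0.115 log2 units over all genes, against 0.122 for HSC origin and 0.126 for granulocyte origin. It exceeded 0.5 in 6 genes for GMP origin, 11 for HSC origin and 8 for granulocyte origin. The 6 were Eif2s3y, Rian, Meg3, Mcts2, Uty and Dnlz.

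Eif2s3y, a translation factor gene on the Y chromosome, read 3.08, 2.71, 2.73 and -0.71 in the 4 GMP-derived clones of mouse 1, the last in iPSC-14. In mouse 2 the 4 clones read 3.865 to 4.04. In chimera 2 they read -1.24, -0.98 and 1.905. Low values also occurred in the granulocyte-derived clones iPSC-15 (-1.79), iPSC-17 (-0.39) and iPSC-42 (-0.83), whereas the lowest HSC-derived clone read 0.645 (iPSC-35). Uty, another gene of the Y chromosome, read -4.24 in iPSC-14, against -2.77 to -2.48 in the other GMP-derived clones of mouse 1. Among the granulocyte-derived clones of mouse 1, Uty read -4.35 in iPSC-15, -4.21 in iPSC-17 and -1.42 in iPSC-16. Kdm5d, also on the Y chromosome, read -2.65 in iPSC-14 and -2.75, -2.57 and -2.59 in the other GMP-derived clones of mouse 1. Its reading was low in every clone, at -2.965 to -2.42 for GMP origin and -2.83 to -2.285 for the others. It did not follow Eif2s3y, and so it cannot tell iPSC-14 from the other clones. Loss of the Y chromosome was not tested. Without iPSC-14 the GMP difference was 0.11 for Eif2s3y, compared with -0.14 with it (SE 0.43 and 0.45).

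Rian read 2.52 in iPSC-13 of mouse 1, 2.55 in iPSC-27 of mouse 2 and 2.14 in iPSC-40 of chimera 2, while the other 8 GMP-derived clones lay between 0.48 and 1.54. Meg3 was highest in the same 3 clones, at 1.40 in iPSC-13, 1.73 in iPSC-27 and 1.43 in iPSC-40. Among the GMP-derived clones of each animal, the same clone was thus highest for both transcripts. Clones of other origins reached as high: Meg3 read 1.42 in the HSC-derived iPSC-7 of mouse 1 and 1.755 in the HSC-derived iPSC-22 of mouse 2, and Rian read 2.24 in the granulocyte-derived iPSC-43 of chimera 2. Mcts2, an imprinted gene that arose as a retrocopy, ranged from 0.18 in iPSC-13 to 2.78 in iPSC-40 among GMP-derived clones, and read 0.49 in iPSC-27. Its highest GMP-derived clone was thus shared with Meg3 and Rian in chimera 2 only. The other clones ranged from -0.30 to 3.57 with a median of 1.11. In chimera 2 the granulocyte-derived clones read 2.94, 2.49 and 3.57.

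**Figure D5:**
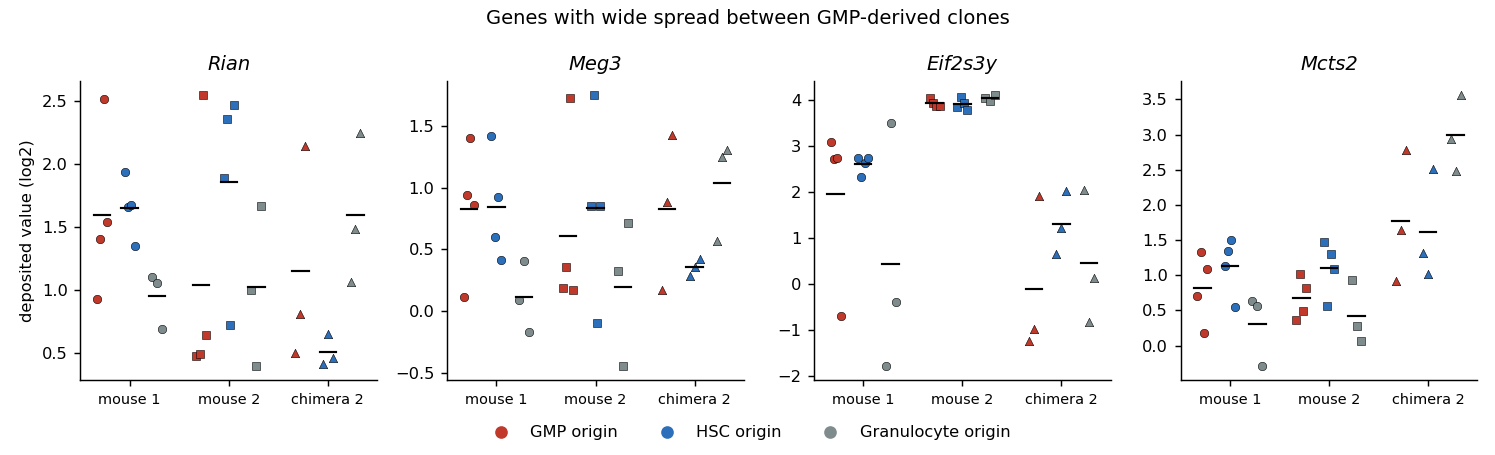
Deposited log2 values (y axes) of 4 genes that vary widely between GMP-derived clones, in each of the 31 clones by animal, with GMP origin left of HSC and granulocyte origin. Points are clones and bars are means; for Rian and Meg3 iPSC-13, iPSC-27 and iPSC-40 read highest among the GMP-derived clones of their animals, and for Eif2s3y iPSC-14 lies at -0.71 while the other GMP-derived clones of mouse 1 lie at 2.71 or above.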

How the data were processed

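The deposited values are log2 intensities of 22626 Affymetrix probe sets on 59 arrays. The base of 2 (range -4.83 to 6.97) and the centring of each array's mean near 0 were inferred from the values; how the authors corrected background and summarised probes, and any scan batches, is not given in the sources used here. Probe sets were named through the platform's annotation and symbols of GRCm38.p6 (1 gene for 18003, several for 287, none for 4336). A gene, of 11807 in all, was read by its probe set of highest mean level across the 59 arrays. No 2 arrays were identical. The number of arrays limits the precision.

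Cell of origin and animal were terms in limma 3.58.1 (R 4.3.3; lmFit and eBayes, 2-sided, Benjamini-Hochberg over all genes, threshold 0.05); values within animals and the test between animals came from a fit of the 9 groups of animal and origin. The fits were tested on simulated data. The compared clones were chosen by their labels, and the 27 gene lists were chosen with earlier results of these data known. Named genes are the 15 with the smallest p, list members, the 8 with the smallest p between animals, genes called between the other origins, and genes and clones that stood apart. Alternatives covered normalization, low genes, probe sets, variance settings, the animal term, the samples and leaving out clones or animals.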

Additional observations from a re-analysis of the deposited data

Results flagged for a closer look

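In groups of 4 clones, 47 genes were searched for a clone whose gap to the nearest other exceeded 0.829 of the group's range, in 188 gene and group combinations. There were 11 such values. Chance gives about 1 in 20 groups, and 11 in 188 is close to that rate. The rate does not hold for genes searched for their wide spread between GMP-derived clones, so the count cannot be tested against it. Only GMP- and HSC-derived clones of the animals labelled mouse come in groups of 4. Granulocyte-derived clones and clones of the animal labelled chimera were therefore not searched.

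Among GMP-derived clones of mouse 2, iPSC-27 read 1.73 for Meg3 (others 0.17 to 0.36), 2.55 for Rian (others 0.48 to 0.64) and 1.79 for Myc (others 1.35 to 1.42), and iPSC-28 read 1.57 for the chaperone gene Clu (others 1.67 to 1.68). Among GMP-derived clones of mouse 1, iPSC-14 read -0.71 for Eif2s3y (others 2.71 to 3.08), -4.24 for Uty (others -2.77 to -2.48) and 0.36 for the X-linked gene Mid1 (others 1.64 to 1.83). In the same group iPSC-11 read 2.40 for Myc (others 2.70 to 2.735). Low values were not particular to iPSC-14. The granulocyte-derived clones iPSC-15 and iPSC-17 of mouse 1 read -4.35 and -4.21 for Uty and 0.70 and 0.92 for Mid1. Of the 11 values, 3 belong to iPSC-27 and 3 to iPSC-14. Eif2s3y, Uty and Mid1 were searched for their wide spread alone. Meg3 and Rian also have a wide spread, but like Myc they were open to naming whatever their p. The count by clone is a description.

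Among HSC-derived clones, iPSC-21 of mouse 2 read 4.89 for Nanog (others 5.05 to 5.08), iPSC-24 of mouse 2 read 2.095 for Bhlhe40 (others 2.42 to 2.47) and iPSC-10 of mouse 1 read -0.83 for Adm (others -0.57 to -0.53). Without iPSC-14 the GMP difference of Mid1 was 0.025, against -0.075 with it, and neither passed the threshold.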

How the results depend on the processing

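For GMP minus the mean of the other origins the count of genes stayed at 0 under each alternative other than leaving out 1 clone, and lay between 0 and 1 when 1 clone was left out (Krt16 without iPSC-15). The count at an unadjusted p under 0.05 depended more on the fit, with 265 without an animal term, 269 with the 11 fibroblast-derived clones added, 904 over all 18003 probe sets, 1101 without mouse 1 and 549 as reported. Leaving out 1 clone gave 0 to 0 genes against HSC origin, 0 to 1 against granulocyte origin, 0 to 22 for granulocyte minus HSC origin, 0 to 0 in mouse 1, 0 to 2 in mouse 2, 0 to 1 in chimera 2 and 0 to 2 between animals. The count between animals was 1 (Adm) without genes under the 40th percentile of mean level and 1 with eBayes trend and robust settings. Chosen after seeing the data, for granulocyte minus HSC origin, were fits with the fibroblast-derived clones (0 genes), with 1 mean per animal and origin (0), and without mouse 1 (0), mouse 2 (21) or chimera 2 (0). The cause of these changes was not tested. Over 83 named genes and 3546 values under alternatives, 1 passed, 3314 kept their direction and 232 had the opposite one without passing, which occurred in at least 1 alternative for 47 of the 83 genes. No paired analysis was possible because the blood-derived clones carry unique clone numbers, so that no number is shared between origins; clones were matched by animal instead, through the animal term of the reported fit. Signal over background is unknown in the deposited values, which limits what can be said of genes near the bottom of the scale.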
